A study of Mus musculus with 4 samples.

Results

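Killer lectin-like receptors are C-type lectin proteins of the surface of natural killer (NK) cells and of some T cells, most of them encoded in the NK gene complex. This section describes 8 of their genes, Klrd1, Klrk1, Klrc1, Klrc2, Klrb1c, Klrb1f, Klrg1 and Klre1, which were chosen by name from the 49671 genes of the deposited tables. Total RNA of CD3+ T cells from the spleens of 4 female mice was sequenced, and the samples are labelled as biological replicates of 1 group. Each mouse was an F1 hybrid, with a castaneus father and a C57BL/6 mother in which 1 copy of Xist was deleted. The labels do not say which daughters carry the deletion. Xist, the RNA that silences the X it is made from, gave 99.92% to 99.96% of its allelic reads from the Castaneus allele in the 4 replicates. The column-enriched cells had spent 48 hours in culture on anti-CD3 (1 µg/ml, bound to the plate) with anti-CD28 (10 µg/ml, soluble) and 2.5 µM IMD-0354, which blocks IKKβ, a kinase of the NF-κB pathway. All 4 samples share this treatment, so its effect on the receptors was not tested.

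As background, CD94, encoded by Klrd1, has almost no signalling tail of its own and pairs with an NKG2 protein. With NKG2A, encoded by Klrc1, the pair inhibits the cell, and with NKG2C, encoded by Klrc2, it activates it. Both pairs bind Qa-1, a nonclassical MHC class I molecule encoded by H2-T23. NKG2D, encoded by Klrk1, is an activating receptor for stress-induced ligands. KLRG1 is an inhibitory receptor for cadherins that marks effector T cells, and NK1.1, encoded by Klrb1c, is used in C57BL/6 mice to recognise NK cells and natural killer T cells.

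Klrc1 and Klrd1, which encode the chains of the inhibitory CD94-NKG2A pair, stood far above the other 6 genes. Klrc1 had 3.00, 3.49, 4.18 and 3.85 RPKM (a read count scaled to gene length and library depth) in replicates 1 to 4, with a mean of 3.63 ± 0.508 (SD, n = 4). Klrd1 (ENSMUSG00000030165, chr6:129591782-129598775, mm10) had 1.90, 4.41, 3.56 and 3.81 RPKM, with a mean of 3.42 ± 1.08 (SD, n = 4). Replicate 1 was the lowest of the 4 for both genes, and for Klrd1 it was the only value below 3 RPKM. In bulk RNA a low level can come from few cells with the receptor or from little RNA in each cell, and these cannot be told apart. The 2 genes together made up 76.6% to 85.3% of the summed RPKM of the 8 receptor genes. The ratio of the Klrc1 level to the Klrd1 level was 1.58, 0.791, 1.17 and 1.01 in replicates 1 to 4, so neither chain was the higher one in every mouse.

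Klrc2, the activating partner of CD94, was much lower than its inhibitory neighbour. It had 0.468, 0.438, 0.570 and 0.403 RPKM in replicates 1 to 4, with a mean of 0.470 ± 0.0720 (SD, n = 4). The level of Klrc1 was 6.41 to 9.55 times that of Klrc2 in the 4 replicates, with a mean ratio of 7.81 ± 1.32 (SD, n = 4). Klrc1 (ENSMUSG00000030167, chr6:129666015-129678973) and Klrc2 (ENSMUSG00000052736, chr6:129647496-129660689) lie beside each other on the minus strand of mm10, and they resemble each other in sequence. Their coding sequences in GENCODE M21 were identical at 593 of 714 aligned bases (83.1%), with an unbroken identical run of 100 bases. Of the 50-base words of a Klrc1 transcript, 40.3% also occurred in transcripts of Klrc2 or Klrc3, and of those of a Klrc2 transcript 38.9% occurred in Klrc1 or Klrc3. No source used here says how reads that match several genes were counted, and the levels of Klrc1 and Klrc2 are uncertain to that extent. The stretches below, 90 bases of spliced coding sequence from 5′ to 3′, show where the genes can and cannot be told apart, with the bases that differ between them in capitals. The first holds no difference and is coding bases 363 to 452 of Klrc1 and 345 to 434 of Klrc2, and the pair after it differs at 40 of 90 bases, at coding bases 264 to 353 of Klrc1 and 246 to 335 of Klrc2.
Klrc1 and Klrc2, identical stretch: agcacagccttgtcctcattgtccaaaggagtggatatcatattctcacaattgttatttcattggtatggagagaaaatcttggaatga
Klrc1, least alike stretch: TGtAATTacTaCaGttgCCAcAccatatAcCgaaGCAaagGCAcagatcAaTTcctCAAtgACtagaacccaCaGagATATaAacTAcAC
Klrc2, least alike stretch: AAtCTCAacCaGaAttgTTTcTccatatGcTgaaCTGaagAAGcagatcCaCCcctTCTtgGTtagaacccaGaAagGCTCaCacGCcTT

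The other activating and inhibitory receptors were below 1 RPKM. Klrg1 (ENSMUSG00000030114, chr6:122270596-122282882), the one member that lies outside the region of the others, had 0.495, 0.489, 0.737 and 0.334 RPKM in replicates 1 to 4, with a mean of 0.514 ± 0.166 (SD, n = 4). Klrk1 (ENSMUSG00000030149, chr6:129610323-129623864) was steady over the mice, with 0.265, 0.385, 0.411 and 0.319 RPKM and a mean of 0.345 ± 0.0659 (SD, n = 4). Klre1 (ENSMUSG00000050241, chr6:129577905-129585827), whose protein pairs with KLRI1 to inhibit or with KLRI2 to activate in mice, varied most among the 6 genes read in all 4 mice. It had 0.0701, 0.834, 0.344 and 0.182 RPKM in replicates 1 to 4, so that its standard deviation of 0.337 was nearly as large as its mean of 0.358. Replicate 2 held the highest value of Klre1 and replicate 1 the lowest. Its partner genes were low too, with 0.0342 ± 0.0539 RPKM for Klri1 and 0.104 ± 0.0501 RPKM for Klri2 (SD, n = 4).

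Klrb1c and Klrb1f, the NKR-P1 genes among the 8, were at the edge of detection. Klrb1c (ENSMUSG00000030325, chr6:128778485-128789215) had 0.0856, 0, 0.115 and 0.0521 RPKM in replicates 1 to 4. Klrb1f (ENSMUSG00000030154, chr6:129045901-129057464), which encodes NKR-P1F, had 0.112, 0, 0 and 0.0286 RPKM. Both genes were listed at 0 in replicate 2. Klrb1b, the gene of the inhibitory receptor NKR-P1B and not among the 8, was read in all 4 mice, with 0.310, 0.339, 0.129 and 0.281 RPKM. In the annotation 8931 bases of Klrb1c are shared on the same strand with Gm44511, a gene model that is itself listed at 0 in all 4 replicates. Of the 50-base words of a Klrb1c transcript, 29.7% also occurred in other transcripts, of Gm44511, Klrb1a, Klrb1b or Klrb1-ps1, and the effect of this on its level was not tested. No such shared word was found for Klrd1, Klrg1, Klre1, Klrk1 or Klrb1f.

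**Figure D1:**
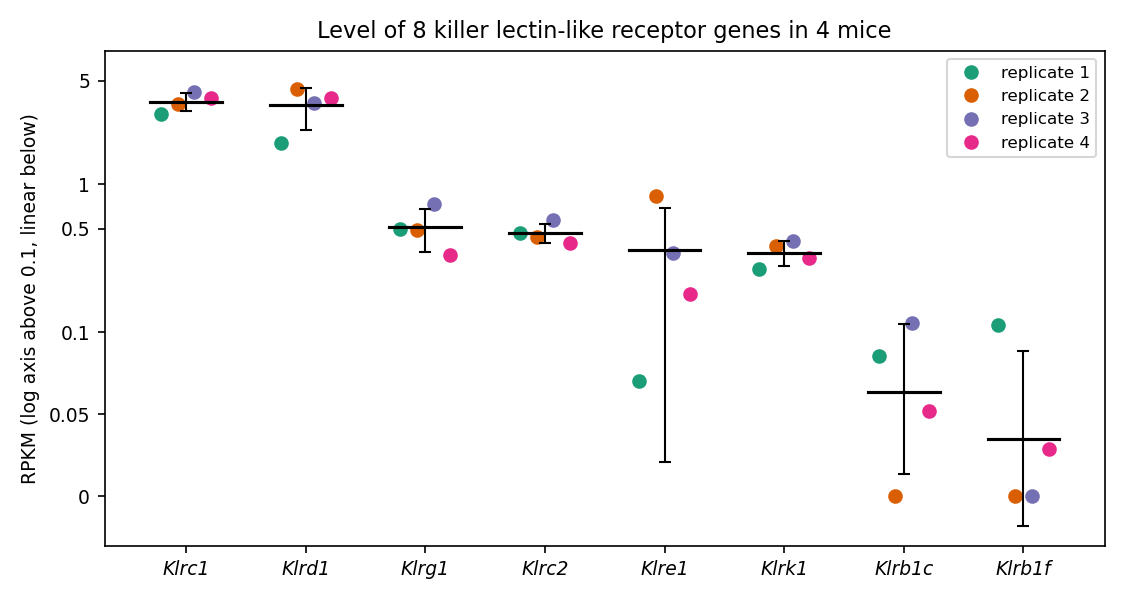
RPKM of each receptor gene (vertical axis, logarithmic above 0.1 RPKM and linear below) in the 4 mice, with dots for replicates and bars for the mean and SD. Klrc1 and Klrd1 sit between 1.90 and 4.41 RPKM, 4 genes lie at 0.0701 to 0.834 RPKM and Klrb1c and Klrb1f at 0 to 0.115 RPKM.

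In the order of mean levels, Klrc1 was followed by Klrd1, Klrg1, Klrc2, Klre1, Klrk1, Klrb1c and Klrb1f. The ranges over the replicates did not overlap between Klrd1 and Klrg1, nor between Klrk1 and Klrb1c, and at each of these steps the gene earlier in the order was higher in 4 of 4 mice. By exact permutation of signs, two-sided, p was 0.125 at each step, the lowest value that 4 mice can give. The order was taken from these same levels, so the p-values between neighbours are a description and do not support it. All other neighbours overlapped, and Klrc1 exceeded Klrd1 in 3 of 4 mice (exact p = 0.625). Without replicate 1 Klrd1 ranked above Klrc1, without replicate 2 Klrk1 above Klre1, and without replicate 3 Klrb1f above Klrb1c. Among the 23510 genes with any RPKM, 66.7% had a lower mean than Klrc1 and 66.0% a lower mean than Klrd1, against 44.3% for Klrg1 and 19.0% for Klrb1f.

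The summed RPKM of the 8 genes was 6.39, 10.04, 9.92 and 8.98 in replicates 1 to 4. Among 11352 other genes that averaged 1 RPKM or more and were above 0 in each replicate, the profiles most like that sum over the 4 replicates were those of Gmeb2, Vmn2r96, Gm29170, Sipa1l2 and Pde7a. Their root mean square difference from it, on the log2 scale after division by each gene's mean, was 0.0175 to 0.0259, against a median of 0.279 over all these genes. Set against the sum of the other 7 members, the difference was 0.0957 for Klrk1, 0.267 for Klrc1, 0.321 for Klrc2, 0.358 for Klrd1, 0.466 for Klrg1 and 1.23 for Klre1, and it was not computed for Klrb1c and Klrb1f, which have a value of 0. With 4 samples such closeness is a description only.

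The adaptors that carry the signals of the activating receptors were above those receptors in level in every mouse. DAP10, the adaptor of NKG2D encoded by Hcst, had 5.05, 3.17, 5.06 and 3.59 RPKM in replicates 1 to 4. DAP12, the adaptor of the activating CD94 pair encoded by Tyrobp, had 18.4, 21.6, 11.2 and 10.3 RPKM. Tyrobp is also a gene of myeloid cells, and the summed level of 5 myeloid markers, Lyz2 the highest of them, was likewise higher in replicates 1 and 2, with 50.9, 81.7, 30.3 and 20.6 RPKM. The part of these cells in the Tyrobp level was not tested. All 15 genes of the list of adaptors and signalling proteins reached 1 RPKM, led by the kinase genes Lck with 65.5 ± 2.99 and Zap70 with 57.5 ± 5.57 RPKM (SD, n = 4). Grb2, an adaptor gene, had 33.8 ± 1.46 RPKM and Ptpn6, the gene of the phosphatase SHP-1 that inhibitory receptors recruit, 32.8 ± 3.92 RPKM (SD, n = 4).

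Ligand genes ranged from abundant to listed at 0. H2-T23, the ligand gene of the CD94 pairs, had 93.4 ± 10.2 RPKM (SD, n = 4). Of 5 ligand genes of NKG2D found in the files, 0 reached 1 RPKM, and H60c was listed at 0. H60b was highest at 0.724 ± 0.199, then Ulbp1 at 0.411 ± 0.284, Raet1d at 0.191 ± 0.238 and Raet1e at 0.0397 ± 0.0309 RPKM (SD, n = 4). The gene models of H60b and Raet1d lie within that of Raet1e on the same strand, and the effect of this on their levels was not tested. The cadherin genes whose products bind KLRG1 were close to 0, with Cdh1 at 0.0238 ± 0.0350 RPKM and Cdh2 at 0.00239 ± 0.00478 RPKM (SD, n = 4) and Cdh4 listed at 0. Among the Clr genes, whose products are ligands of NKR-P1 receptors, Clec2d had 118.8 ± 17.95 RPKM (SD, n = 4). Clec2i had 10.3 ± 1.41 and Clec2g 4.02 ± 0.411 RPKM (SD, n = 4). Clec2f, which GENCODE M21 lists as a transcribed pseudogene, had 0.799 ± 0.194 RPKM (SD, n = 4).

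T cell genes were high in these libraries, and the NK list was split between 4 genes above 1 RPKM and 7 below it. The T cell genes Cd3d and Cd3e had 44.2 ± 2.50 and 42.4 ± 2.30 RPKM (SD, n = 4), and 9 T cell markers summed to 588.3 to 691.9 RPKM. Cd4 had 31.1 ± 5.45, Cd8a 15.4 ± 0.418 and Cd8b1 49.7 ± 2.25 RPKM (SD, n = 4) as genes of the helper and the cytotoxic lineage. Of 11 NK markers 4 reached 1 RPKM, namely Nkg7 with 24.8 ± 8.38, Eomes with 3.93 ± 0.409, Fcgr3 with 3.05 ± 1.93 and Prf1 with 2.02 ± 0.473 RPKM (SD, n = 4). Activated CD8 T cells can express Nkg7, Eomes and Prf1, and myeloid cells Fcgr3. Ncr1, which encodes the NK receptor NKp46, had 0.0681, 0.231, 0.0583 and 0 RPKM in replicates 1 to 4. Klra8 had 0.0594, 0, 0.198 and 0.0818 RPKM, Klra4 0.0702, 0, 0.289 and 0.178 RPKM, and Itga2, the CD49b gene, 0.195, 0.0398, 0.200 and 0.213 RPKM. These 4 genes reached at most 0.289 RPKM in a mouse. They were named as the defining ones when the lists were drawn up, with earlier results of these data known. Klra8 had 0 Castaneus and 33 C57BL/6 reads over the 4 mice, and the effect of the hybrid genome on its level was not tested. Gzma, with 0.456 ± 0.606, Cd160, with 0.183 ± 0.0485, and Cd244, with 0.137 ± 0.0628 RPKM (SD, n = 4), complete the list.

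Marker lists differed in whether they ranked the mice as the receptor sum did, which was highest in replicate 2, then 3, 4 and 1. Replicate 2, with the highest Klre1, Klrd1 and Ncr1, was listed at 0 for Klra4, Klra8 and Gzma. The summed NK marker level was 47.5, 34.3, 31.2 and 27.2 RPKM in replicates 1 to 4, highest in replicate 1, where Nkg7 alone had 37.2 RPKM. Without Nkg7, the other 10 NK markers summed to 10.3, 12.1, 10.8 and 7.90 RPKM, highest in replicate 2. Leaving Nkg7 out was a choice made after the values were seen. Of that sum Fcgr3, which myeloid cells can express, made up 3.11, 5.75, 1.86 and 1.47 RPKM, also highest in replicate 2. Eomes was highest in replicate 3 and Prf1 in replicate 1. The list of natural killer T and gamma delta T cell genes summed to 2.09, 4.85, 2.98 and 2.22 RPKM, and ranked the 4 mice in the same order as the receptor sum. Trdc, the constant gene of the delta chain, had 0.552, 1.72, 1.34 and 0.970 RPKM, and was the only gene of the list with that order by itself. Zbtb16, the gene of the transcription factor PLZF, had 0.331, 0.603, 0.326 and 0.259 RPKM, with a mean of 0.380 ± 0.152 (SD, n = 4). Every gene of the list but Tcrg-C4 was highest in replicate 2, where Tcrg-C4 was lowest, at 0.287 RPKM. The sum of the 5 myeloid markers was highest in replicate 2 as well, at 81.7 RPKM. The 4 B cell markers summed to 9.98, 6.23, 4.36 and 4.90 RPKM, highest in replicate 1. The part of any of these cells in the receptor levels was not tested. Of 20 other killer lectin-like receptor genes in the files, 0 reached 1 RPKM, and they summed to 1.99, 0.827, 3.15 and 2.46 RPKM.

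**Figure D2:**
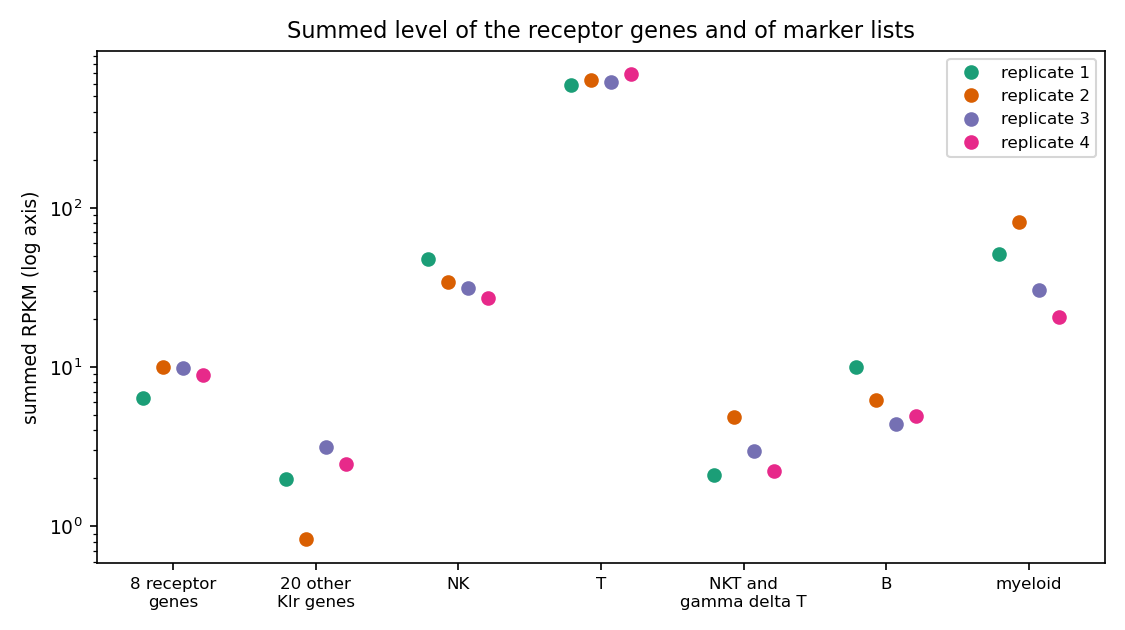
Summed RPKM (vertical axis, logarithmic) of the 8 receptor genes, of 20 other Klr genes and of marker lists for 5 kinds of cell in the 4 mice, with a dot per replicate. The receptor sum, the natural killer T and gamma delta T cell list and the myeloid list are all highest in replicate 2. They reach 10.04, 4.85 and 81.7 RPKM there. The NK list is highest in replicate 1, at 47.5 RPKM, of which Nkg7 is 37.2 RPKM.

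Hybrid mice also show from which parental chromosome a receptor is read. Castaneus alleles were all paternal and C57BL/6 alleles all maternal, so strain and parent of origin cannot be told apart, and the placement of reads from diverged Castaneus alleles was not tested. Allelic reads numbered 30539711 to 34992012 per replicate. Of the autosomal genes that had 20 to 39 allelic reads, 36.4%, 84.2%, 45.2% and 13.5% showed 1 allele only in replicates 1 to 4. Limits computed from reads take reads as independent and cover counting error only. The allele counts were compared over replicates, with edgeR's quasi-likelihood test across all 13627 autosomal genes that averaged 20 or more allelic reads in a replicate. Of the 8 receptor genes 7 could be tested, with Klrb1c just inside that minimum at a mean of 20.25 reads and Klrb1f outside it at 5. Of the 7, 2 were called at a false discovery rate of 5%, against 22.9% of all genes tested, so their count says nothing particular of these receptors. Klrc1 was lower from Castaneus, as were 12.5% of all genes tested, and Klre1 was higher from Castaneus, as were 10.4%. The median log2 ratio of Castaneus over C57BL/6 was 0.03 over the 7 genes and -0.05 over all genes tested.

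Klrc1 was read mainly from the C57BL/6 chromosome. It had 93, 117, 219 and 195 Castaneus reads in replicates 1 to 4, against 396, 455, 526 and 401 C57BL/6 reads. The Castaneus share was 19.0%, 20.5%, 29.4% and 32.7%, below 50% in 4 of 4 mice, with a mean of 25.4% ± 6.70 (SD, n = 4). The log2 ratio of Castaneus over C57BL/6 was -1.56, with a standard error of 0.23 derived from the test statistic and a 95% interval of -2.07 to -1.04 (edgeR, adjusted p = 0.000811). In 11 of 11 alternatives the call held, with edgeR or DESeq2 adjusted p of 1.27e-09 to 0.0114. Since 40.3% of its 50-base words also occur in Klrc2 or Klrc3, allelic reads of Klrc1 may include those of its neighbours, and this was not tested.

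Klre1 was read mainly from the Castaneus chromosome. It had 28, 192, 102 and 45 Castaneus reads in replicates 1 to 4, against 0, 60, 32 and 2 C57BL/6 reads. The Castaneus share was 100%, 76.2%, 76.1% and 95.7%, above 50% in 4 of 4 mice. Its mean was 87.0% ± 12.7 (SD, n = 4), and with reads summed over the replicates it was 79.6%. In replicate 1 the 0 C57BL/6 reads of 28 allow a C57BL/6 share as high as 10.7% from counting error, with reads taken as independent. In that replicate 36.4% of the autosomal genes with 20 to 39 allelic reads showed 1 allele only, so the true limit may be wider. The log2 ratio was 2.96 with a standard error of 0.88 and a 95% interval of 1.02 to 4.91 (edgeR, adjusted p = 0.0346). This call was lost without replicate 1, 3 or 4 (edgeR, adjusted p = 0.0817, 0.0547 and 0.126) and when the pairing of both alleles in 1 mouse was not modelled (adjusted p = 0.255), with 8.78e-05 to 0.255 over 10 alternatives. The direction was the same in all 10.

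Klrd1 lies between these genes and did not pass the test. It had 82, 216, 144 and 164 Castaneus reads in replicates 1 to 4, against 116, 133, 189 and 143 C57BL/6 reads. Its Castaneus share was 41.4%, 61.9%, 43.2% and 53.4%, on both sides of 50%, with a mean of 49.99% ± 9.53 (SD, n = 4). The log2 ratio was 0.03 with a 95% interval of -0.66 to 0.72 (edgeR, adjusted p = 0.964). The share of Klrc1 was below that of its partner gene Klrd1 in 4 of 4 mice, a difference between genes that was not tested.

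The remaining genes did not pass either, and their intervals were wide. Klrc2 had a Castaneus share of 39%, 47.3%, 53.1% and 29.5% in replicates 1 to 4, and its log2 ratio of -0.44 had a 95% interval of -1.53 to 0.66 (edgeR, adjusted p = 0.600). The Klrc1 share was lower than the Klrc2 share in 3 of 4 mice. Klrk1 had shares of 60.8%, 41.2%, 49.8% and 36.7%, and a log2 ratio of -0.14 with an interval of -1.25 to 0.97 (edgeR, adjusted p = 0.882).

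Klrg1 leaned to Castaneus in 3 of 4 mice. It had 68, 46, 36 and 39 Castaneus reads in replicates 1 to 4, against 6, 20, 52 and 6 C57BL/6 reads, and the shares were 91.9%, 69.7%, 40.9% and 86.7%. Replicate 3, which had the highest level of Klrg1, was the mouse on the other side. The log2 ratio was 1.72 with a 95% interval of -0.59 to 4.03 (edgeR, adjusted p = 0.288). For Klrb1c the shares were 37.9%, 71.1% and 57.1% in replicates 1, 3 and 4, from 81 reads in all, and the interval of the log2 ratio was -3.49 to 4.17 (edgeR, adjusted p = 0.922). Klrb1f had 14 Castaneus reads in replicate 1 and 6 C57BL/6 reads in replicate 4, too few for the test.

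**Figure D3:**
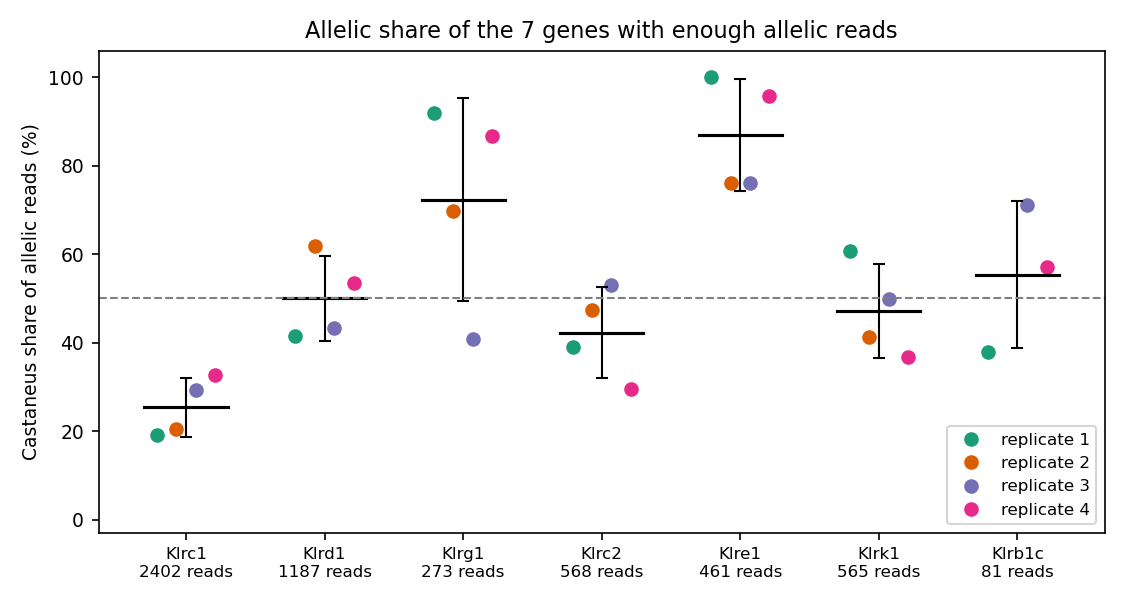
Castaneus share of allelic reads in percent (vertical axis) of the 7 tested receptor genes, with dots for replicates, bars for the mean and SD and the number of allelic reads over all replicates under each name. All dots of Klrc1 lie below the dashed line at 50%, all of Klre1 above it, and the other genes lie on both sides.

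**Figure D4:**
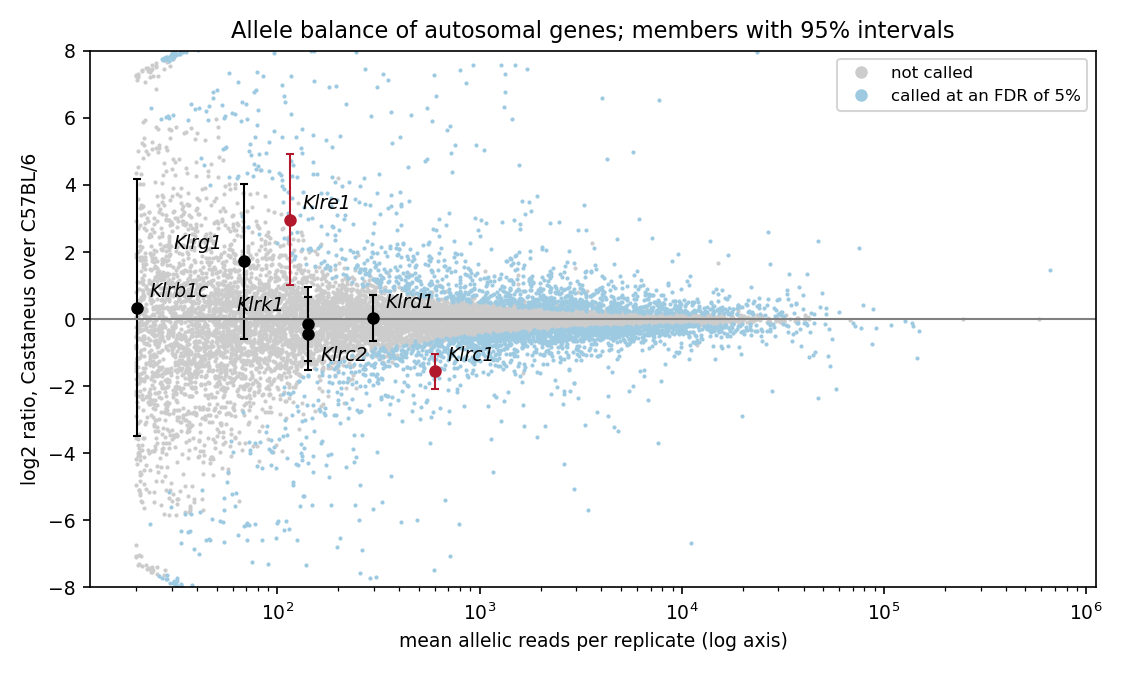
Log2 ratio of Castaneus over C57BL/6 reads (vertical axis, cut short so that a few genes lie beyond it) against the mean allelic reads per replicate (horizontal axis, logarithmic) for the autosomal genes tested, with the receptor genes and their 95% intervals on top. Klre1 at 2.96 and Klrc1 at -1.56, in red, are the called receptor genes, and the intervals of the others, in black, hold 0.

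The allele balance of the receptors' neighbours in and around the NK gene complex was also compared. From 500 kb before Klrb1c to 500 kb after Klrc1, chr6:128278485-130178973, 21 other genes were tested. Of these 1 was higher and 4 were lower from Castaneus, 23.8% in all against 22.9% of all genes tested, which says nothing particular of the region. Their median log2 ratio was -0.16. The 5 with the most allelic reads were Clec2d, Cd69, Fkbp4, Clec2i and Gabarapl1. Clec2d and Clec2i, both Clr genes, were lower from Castaneus, with shares of 30.2% ± 1.83 and 20.8% ± 1.46 (SD, n = 4) and log2 ratios of -1.18 and -1.91 (edgeR, adjusted p = 1.85e-07 and 2.62e-07). Cd69, an activation marker gene, had 51.2%, Fkbp4 51.1% and Gabarapl1 48.2% of their reads from Castaneus on average, with SDs over the 4 mice of under 5 percentage points, and none of these 3 genes passed the test. Klre1 and Klrd1, whose starts are 13.9 kb apart, thus had mean shares of 87.0% and 49.99%. With reads summed over the replicates, the shares were 79.6% and 51.1%. Klrk1, 18.5 kb beyond Klrd1, had a mean share of 47.1% ± 10.6 (SD, n = 4). These differences between genes were not tested, and the Klre1 call held in 6 of 10 alternatives.

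**Figure D5:**
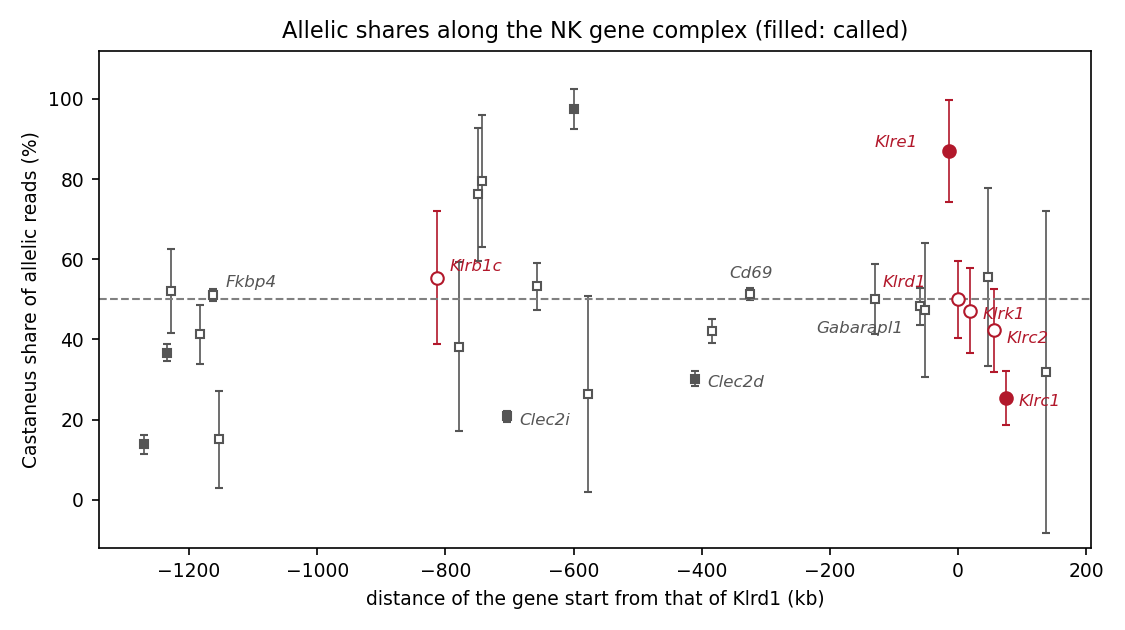
Castaneus share of allelic reads in percent (vertical axis, mean and SD over replicates) against the distance of each gene's start from that of Klrd1 in kb (horizontal axis), with receptor genes as red circles, other genes as grey squares and called genes filled. Klre1 at 87.0% and Klrc1 at 25.4% are the filled circles, on opposite sides of Klrd1.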

How the data were processed

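Stranded libraries of total RNA without ribosomal RNA were sequenced for 4 samples of 1 group, per the labels. The authors deposited RPKM values of both alleles together and raw read counts per gene and allele, per the file headers. The submitters' processing notes list STAR 2.7.1a, featureCounts and mm10. Allele assignment, strand setting, duplicate removal and the total behind the RPKM were not given in the sources used. Of the allelic counts above 0, 60.0% to 68.2% were even per replicate. Replicates are labelled as biological.

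Castaneus and C57BL/6 counts were compared with edgeR 4.0.16 in R 4.3.3 (estimateDisp, glmQLFit, glmQLFTest) with the replicate as a block, because both alleles come from the same mouse, and with the autosomal total of an allele as its library size. The ratio was tested against 1, two-sided, with Benjamini-Hochberg adjustment over all genes tested, and a gene counted as called at a false discovery rate of 5%. No RPKM minimum was set, since 6 of the 8 genes are below 1 RPKM. DESeq2 1.42.0, other normalizations, read minimums, an RPKM minimum and leaving out replicates were alternatives. The test was checked on simulated counts in which 200 genes were changed. Among changed genes estimated in the right direction, it called 47.4% at a 2-fold change and 37.6% at a 1.5-fold change. Of the unchanged genes 0.0521% were called. A gene that was not called can therefore still differ between alleles by such an amount. Intervals on reads are exact Clopper-Pearson bounds or 3 counts for a count of 0. Positions, overlaps and transcripts came from GENCODE M21, in which all 8 gene IDs were found. Its build GRCm38 is mm10. Coding sequences were aligned with Biopython 1.88, and other steps used Python 3.11.15, numpy 2.4.6, pandas 2.3.3, scipy 1.17.1 and matplotlib 3.10.9.

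Named are the 8 genes, other receptor genes of at least 1 RPKM and all NK markers. Up to 4 of the highest genes of each list and defining markers of other cells are named too. The 5 profiles closest to the receptors' sum and the 5 genes in and around the NK gene complex with the most allelic reads are added. The members and lists were chosen with earlier results of these data known.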

Additional observations from a re-analysis of the deposited data

Results flagged for a closer look

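No level or allelic share of a receptor gene had a mouse past Dixon's 95% critical value. Among 61 sets of 4 values examined, which include the levels of partner and marker genes, 6 had such a mouse. Chance gives about 1 in 20 for normally distributed values, which levels near 0 need not be, so no excess is read from this count. The measure is the gap of the extreme mouse to its nearest neighbour divided by the range. It was 0.838 for the level of Nkg7, with replicate 1 high at 37.2 RPKM, and 0.897 for that of Itga2, with replicate 2 low at 0.0398 RPKM. It was 0.887 for Trbc2, a T cell receptor constant gene with 192.8 RPKM in replicate 4, and 0.866 for Clec2f, with 0.511 RPKM in replicate 2. For Cdh1 it was 0.845 and for Cdh2 it was 1, both with replicate 4 high, at 0.0759 and 0.00956 RPKM. Cdh2 was listed at 0 in replicates 1 to 3, which by itself sets its value at 1.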

How the results depend on the processing

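Over all genes, 1418 were higher and 1700 lower from Castaneus in edgeR. More genes were higher than lower under other scalings, with 1579 and 1444 under TMM, 1586 and 1445 under DESeq2's size factors in edgeR, and 2367 and 2321 in DESeq2's Wald test. Leaving out 1 replicate gave 908 to 1543 higher and 1035 to 1903 lower, with 908 and 1046 without replicate 1 and 942 and 1035 without replicate 4. The highest counts, 1543 and 1903, came without replicate 2 and were above those of all 4 mice. The fit with no replicate block gave 1151 higher and 1299 lower. Of the receptor genes, 2 were called, 1 to 2 when a replicate was left out, 1 with no replicate block and 1 when a mean of at least 1 RPKM was required, which leaves 2 of them tested. At a minimum of 50 reads Klrb1c had no value. Klrc1 was called throughout, with a log2 ratio of -1.74 to -1.39. Klre1 lost its call with no replicate block, where the log2 ratio was 1.98, and had 2.37 to 3.62 when a replicate was left out. Fewer samples enter the fits without a replicate, and the causes of these changes were not tested. Ratios of genes that were not called changed sign when a replicate was left out, and ranged from -0.21 to 0.19 for Klrd1 (-0.21 without replicate 2 and -0.04 without replicate 4), -0.41 to 0.066 for Klrk1 (positive without replicate 4) and -0.13 to 0.81 for Klrb1c (negative without replicate 3). When a replicate was left out, 6 to 8 of the genes kept their place in the order of levels, 6 without replicate 1, 2 or 3. Rescaling RPKM to an equal total per replicate kept the place of 8. Depth limits Klrb1c and Klrb1f most, with means of 20.25 and 5 allelic reads per replicate.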

Other observations

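Klra2, another receptor gene of the complex, was also higher from Castaneus, with 95.8% ± 5.08 of its reads (SD, n = 4), from a mean of 43.25 allelic reads per replicate (edgeR, adjusted p = 0.0483). Its C57BL/6 reads were 10, 0, 0 and 2 in replicates 1 to 4, and its likeness in sequence to other genes was not tested. It was the 1 gene called of 5 other killer lectin-like receptor genes tested, against 22.9% of all genes tested. That count says nothing particular of these receptors. Of the signalling genes, 14 were tested for allele balance, and 2 were higher and 2 lower from Castaneus. Over all genes tested 10.4% were higher and 12.5% lower, so this count says nothing particular of the list. Syk, the kinase gene that acts after DAP12, had 69.7% ± 1.96 from Castaneus and Inppl1, a lipid phosphatase gene, 78.2% ± 5.74 (SD, n = 4). Fyn, with 42.6% ± 2.05, and Zap70, with 45.6% ± 1.504 (SD, n = 4), were lower. Of 8 NK markers tested, 1 was higher and 1 lower from Castaneus, which says nothing particular of that list either. These were Eomes, higher with 61.2% ± 4.28, and Nkg7, lower with 30.8% ± 3.29 (SD, n = 4).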
